A study of Mus musculus with 21 samples.

Results

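A set of 9 genes of the B cell lineage and of the lymphoid follicle, Pax5, Pou2f2, Ms4a1, Cd79a, Cd79b, Blk, Cxcr5, Cr2 and Cxcl13, was followed through every library of a mouse colon RNA-seq series. They are 9 of 24062 genes in the count table, found there by symbol, and 9 of 9 passed the filter on low counts that left 15936 genes for testing. The members were selected on values already measured in these libraries: Pax5 stood out between the tumours and the normal colon of knock-in males, Pou2f2 in how that difference set knock-in apart from wild-type males, and the others were added as genes of the same lineage or follicle. Values of the members in any comparison that uses the tumours of knock-in males are therefore a description and carry no p-value. Wild-type males and knock-in male normal colon also entered the contrasts that chose Pou2f2 and Pax5, so no p-value of Pou2f2 is given there, and the counts out of 9 in those comparisons include it.

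The series asked how mutations in the amyloid precursor protein gene App bear on colon tumours raised with azoxymethane, a carcinogen, and dextran sulfate sodium, an irritant of the gut lining (AOM/DSS). It holds 7 groups of 3 libraries, all from colon of C57BL/6 mice: wild-type male normal, wild-type male tumour, App NL-G-F knock-in male normal, App NL-G-F knock-in male tumour, wild-type female normal, wild-type female tumour and App NL-G-F knock-in female normal. In App NL-G-F mice the mutated gene sits at its own locus, so no transgene promoter drives it, and the library names of this genotype carry the tag KIKI. Tumours of knock-in females were not analysed here.

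Tumour libraries are labelled as treated with AOM/DSS and normal libraries as untreated, while the series' design text also speaks of normal tissue next to tumours. Which of these a normal library was is not given for each one, so tissue and treatment cannot be told apart in any tumour against normal comparison. The labels used here give no age and do not say whether the 3 libraries of a group came from separate animals. The p-values then measure the spread between these libraries, which may be technical in part.

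B cells carry a surface antibody, the B cell receptor, whose signal passes into the cell through the paired chains CD79A and CD79B. In the colon they gather in isolated lymphoid follicles and colonic patches. Stromal cells of the follicle secrete the chemokine CXCL13, and B cells that bear its receptor CXCR5 follow it inwards. Follicular dendritic cells in the follicle hold antigen on complement receptors, among them the product of Cr2. When a B cell matures into an antibody-secreting plasma cell it shuts down Pax5 and many surface genes of the B cell.

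By role, Pax5 encodes the transcription factor that keeps a cell committed to the B lineage, and Pou2f2 encodes Oct-2, a POU-domain factor of B cells that other leukocytes also use. Ms4a1 encodes the surface protein CD20. Cd79a and Cd79b encode the signalling chains of the B cell receptor, and Blk encodes a Src-family kinase downstream of it. Cr2 encodes complement receptors of B cells and follicular dendritic cells, Cxcr5 the homing receptor, and Cxcl13 its ligand, which is a stromal product and not one of B cells in the main.

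On GRCm38, the build that matches the mm10 of the submitters' processing notes, the B cell receptor genes lie apart: Cd79a spans chr7:24897381-24902197 on the plus strand and Cd79b spans chr11:106311341-106314762 on the minus strand. Pou2f2 spans chr7:25087344-25179726 on the minus strand of the same chromosome as Cd79a. Pax5 spans chr4:44524757-44710487, Ms4a1 chr19:11249675-11266241, Cr2 chr1:195136811-195176716, Blk chr14:63372836-63417037 and Cxcr5 chr9:44511787-44561877, all on the minus strand. Cxcl13 spans chr5:95956951-95961068 on the plus strand. All 9 are protein-coding, and the counts are reads over exons, whose merged length runs from 1150 bases for Cxcl13 to 8853 bases for Pax5. Exons of Pax5 share 761 bases with other annotated genes, those of Cxcr5 110 bases with Bcl9l on the other strand and those of Pou2f2 35 bases, while the other 6 members share 0. Whether strand was used in counting is not given in the sources used here, so low counts of Pax5 and Cxcr5 in tumours may hold reads of those neighbours.

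Promoter sequences are shown for Cd79a, which moved with most of the other members from library to library, and for Pou2f2, which did so less. Each run holds 250 bases before and 50 bases after the RefSeq gene start, 5′ to 3′ on the gene's own strand, from GRCm38.p6. Capitals mark the purine-rich ETS core, written GAGGAA on one strand and TTCCTC on the other.
Cd79a, chr7:24897247-24897546, plus strand: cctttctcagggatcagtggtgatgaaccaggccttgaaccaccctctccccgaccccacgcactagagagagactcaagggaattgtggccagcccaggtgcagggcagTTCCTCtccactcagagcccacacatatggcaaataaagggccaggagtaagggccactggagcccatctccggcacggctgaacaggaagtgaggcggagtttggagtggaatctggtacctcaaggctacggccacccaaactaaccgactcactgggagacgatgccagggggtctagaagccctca
Pou2f2, chr7:25132411-25132710, minus strand: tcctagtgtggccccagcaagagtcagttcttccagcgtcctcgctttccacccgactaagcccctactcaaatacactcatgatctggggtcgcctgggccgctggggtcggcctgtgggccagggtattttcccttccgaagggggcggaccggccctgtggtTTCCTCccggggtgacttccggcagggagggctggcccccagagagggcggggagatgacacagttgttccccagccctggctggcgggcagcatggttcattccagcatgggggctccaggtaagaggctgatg
The core begins 140 bases before the RefSeq start in Cd79a and 85 bases before it in Pou2f2. The Pou2f2 window lies inside the gene as the GENCODE annotation draws it, at an internal start, and the Cd79a window runs over the annotated start of the gene. RefSeq promoters were found for 5 of the 9 members, namely Cd79a, Pou2f2, Pax5, Cr2 and Cxcl13. The core occurs on either strand in 2 of these 5 and in 28.3% of 32851 promoters of the same length. The octamer ATGCAAAT, the site that gives Oct-2 its class name, was read in 0 of the 5 and in 1.74% of all promoters, and CCCNNGGGA, a form of the early B cell factor site, in 0 of the 5 and in 6.56%. The motifs do not overlap in sequence, both strands were searched, and a match is a stretch of letters and nothing more. Other forms of these sites were not searched, so 0 matches do not show that a promoter lacks a site for either factor.

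Totals ran from 3414123 counts in wild-type male tumour replicate 2 to 26174008 in wild-type female normal replicate 1. Values are given below as CPM, the usual unit of counts scaled by library size, with sizes adjusted by TMM, in which 3 counts are worth 0.127 to 0.873 CPM depending on the library. All libraries carried high levels of colon epithelium markers (Epcam, Cdh1, Krt8, Krt20, Vil1 and Cdx2), with summed values of 4113 to 7972 CPM and no marker at 0. The replicate number a column carries is used throughout. The table heads 2 columns of knock-in female normal colon alike, and these are called replicates a and b. Tumour libraries wild-type female 2 and 3 and knock-in male 3 carry running numbers 152 to 154 in the library names, apart from the other tumours, and their values are set beside the others where they differ.

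B cell transcripts were present in normal colon of every group but rare. Ms4a1 measured 13.2, 1.12 and 6.37 CPM in replicates 1 to 3 of wild-type male normal colon, 6.54, 25.1 and 6.66 CPM in knock-in male normal colon, and 7.74, 2.79 and 13.2 CPM in wild-type female normal colon. In knock-in female normal colon Ms4a1 measured 15.4, 15.6 and 7.66 CPM in replicates 1, a and b. Libraries of 1 group thus differed by up to 11.7 times for Ms4a1, and all 4 normal groups overlapped.

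Cd79a and Cd79b, which act as a pair in the receptor, had the same highest and lowest library in the normal colon of males. In wild-type male normal colon Cd79a measured 12.6, 3.15 and 4.48 CPM and Cd79b measured 13.4, 2.85 and 4.78 CPM in replicates 1 to 3. In knock-in male normal colon Cd79a measured 15.7, 25.4 and 7.18 CPM and Cd79b measured 10.1, 22.7 and 7.52 CPM. Replicate 1 of the wild-type males and replicate 2 of the knock-in males stood highest for both chains. In wild-type female normal colon Cd79a measured 4.18, 1.11 and 7.90 CPM, and in knock-in female normal colon 13.7, 23.9 and 11.4 CPM.

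Pax5 was the rarest member per length of exon in 5 of the 7 groups. It measured 5.57, 0.300 and 1.79 CPM in normal colon of wild-type males, 5.05, 10.6 and 3.29 CPM in knock-in male normal colon, 1.23, 0 and 2.17 CPM in wild-type female normal colon and 6.01, 7.53 and 3.45 CPM in knock-in female normal colon. A count of 0 in replicate 2 of the wild-type females allows up to 0.418 CPM, counting error only.

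Per kilobase of merged exon, which allows levels of different genes to be set side by side, Cxcl13 led in 6 of the 7 groups. In knock-in female normal colon Cd79a led with a mean of 11.2 CPM per kilobase and Cxcl13 followed with 11.1, a gap far smaller than the SDs of 4.58 and 3.67 (n = 3 each). In wild-type female normal colon the order of the mean level per kilobase was Cxcl13 at 9.73, Cd79b at 4.15, Cd79a at 3.02, Cr2 at 1.74, Ms4a1 at 1.28, Blk at 0.899, Cxcr5 at 0.810, Pou2f2 at 0.197 and Pax5 at 0.128. Cxcl13 stood clear of its nearest neighbour in level by more than either SD in wild-type female normal colon (1.87 for Cxcl13 and 3.84 for Cd79b), whereas the levels of Cd79b and Cd79a differed by less than theirs.

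The spread between replicates was large and shared. Replicate 1 was highest for 9 of 9 members in wild-type male normal colon, replicate 2 for 9 of 9 in knock-in male normal colon, replicate 3 for 9 of 9 in wild-type female normal colon and replicate a for 8 of 9 in knock-in female normal colon. In the knock-in male tumours replicate 3 was highest for 7 of 9. The summed level of the members ran from 22.4 to 111 CPM in normal colon of wild-type males and from 61.3 to 189 CPM in knock-in male normal colon, against 23.9 to 27.4 CPM in wild-type male tumours. In this sum the wild-type tumours of males were thus alike and the normal colon libraries were not. Single members differed more between those tumours, Pax5 most, at 0.291 to 1.30 CPM.

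The biological coefficient of variation, edgeR's estimate of the spread between replicates beyond counting error, was 93.8% for Pax5, 68.6% for Ms4a1, 68.3% for Blk, 65.9% for Cd79b, 65.5% for Cr2, 63.5% for Cd79a and 52.0% for Cxcr5, against a median of 17.9% over the 15936 genes. Cxcl13 at 38.6% and Pou2f2 at 32.4% varied least among the members. Bulk colon was sequenced, so fewer B cells in a piece of tissue and less RNA per cell cannot be told apart, here and in every result that follows.

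**Figure D1:**
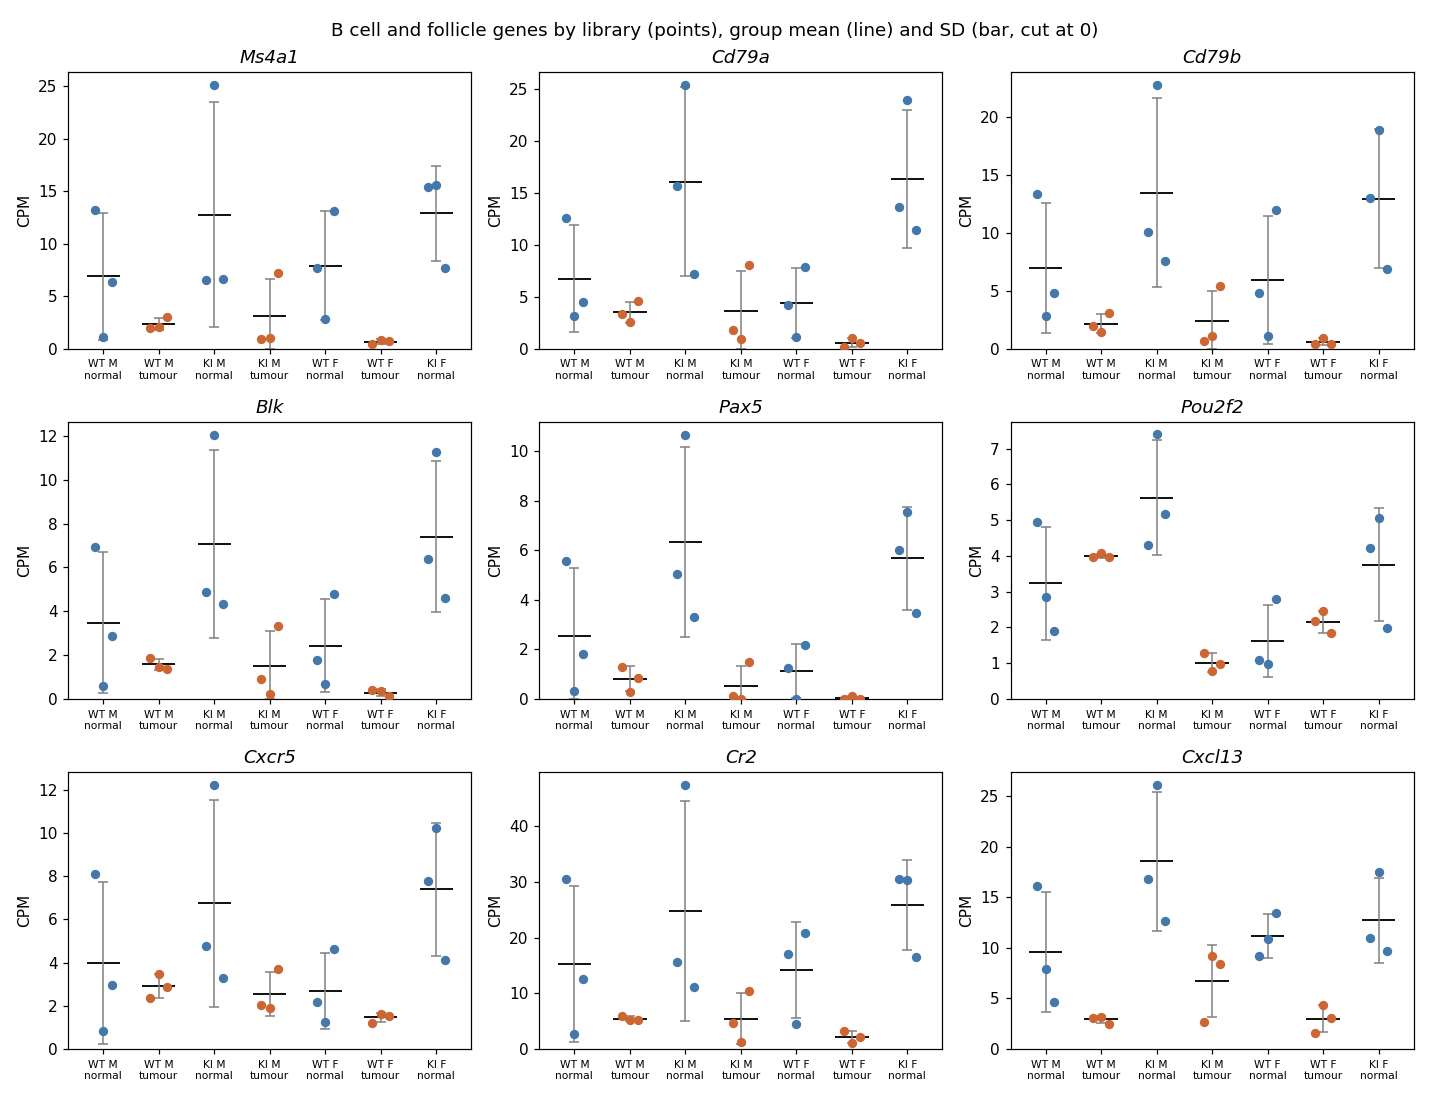
Level of each member in each library (points, CPM on a linear scale from 0) with the group mean (horizontal line) and SD (vertical bar, shown down to 0), for the 7 groups of 3 libraries; blue is normal colon and orange is tumour. Normal colon libraries of 1 group lie far apart for most members, and the wild-type female tumours lie lowest for Ms4a1, Cd79a, Cd79b, Blk and Pax5.

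After each library's deviation from its group mean was taken on the log2 CPM scale, Ms4a1, Cd79a, Cd79b, Blk, Pax5, Cxcr5 and Cr2 went up and down together: Pearson's r over the 21 libraries was 0.71 to 0.92 in their 21 pairs, with a median of 0.86. Pou2f2 followed the other members less closely (median r = 0.55), and Cxcl13 less again (median r = 0.45), its lowest value being 0.16 with Cr2. The libraries of a group share their depth and tissue piece across genes, so these values describe the libraries and have no test. The heat map of deviations shows the block of 7 genes and the libraries that carry it.

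**Figure D2:**
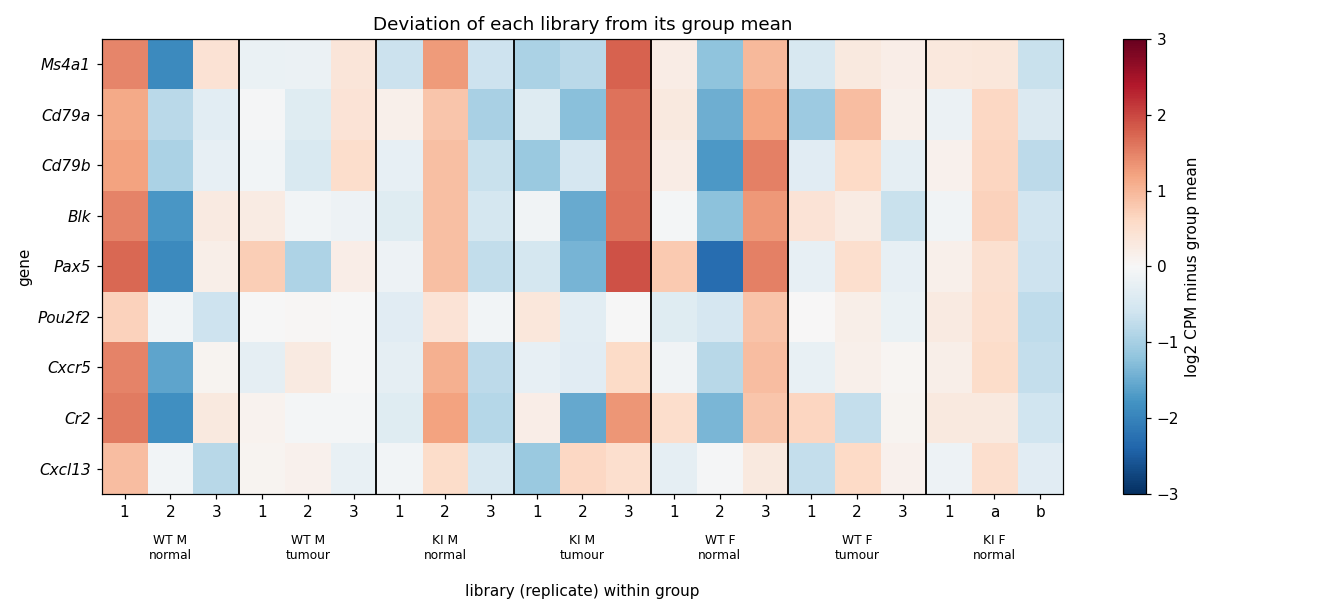
Deviation of each library from its group mean (colour, log2 CPM) for the 9 members in rows and the 21 libraries in columns, by group and replicate. Wild-type male normal replicate 1 and knock-in male tumour replicate 3 are red for nearly all B cell genes, and wild-type male normal replicate 2 and wild-type female normal replicate 2 are blue.

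In wild-type females, tumours held less RNA of 6 of the 9 members than normal colon. Ms4a1 measured 7.74, 2.79 and 13.2 CPM in normal colon and 0.407, 0.819 and 0.761 CPM in the tumours of replicates 1 to 3. The groups did not overlap, and Ms4a1 fell by 3.53 on the log2 scale (SE 1.04, adjusted p = 0.00996 by edgeR), which is 11.5-fold. Ms4a1 passed in all 15 settings tried, with log2 fold changes of -5.48 to -3.0. The value furthest from 0 came with a covariate for running numbers 152 to 154.

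Both receptor chains fell in the tumours of wild-type females. Cd79a measured 4.18, 1.11 and 7.90 CPM in normal colon and 0.136, 1.05 and 0.544 CPM in the tumours, a log2 fold change of -2.86 (with SE 0.97, adjusted p = 0.0226 by edgeR). Cd79b measured 4.78, 1.11 and 11.9 CPM in normal colon and 0.407, 0.936 and 0.435 CPM in the tumours, a log2 fold change of -3.27 (with SE 0.99, adjusted p = 0.0120 by edgeR). For each chain the lowest normal library, replicate 2, stood just above the highest tumour library.

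Blk, the kinase of this pathway, measured 1.78, 0.697 and 4.80 CPM in normal colon and 0.407, 0.351 and 0.109 CPM in the tumours of wild-type females. Its tumour values rest on 1 to 3 counts a library, and its log2 fold change was -3.01 (SE 1.12, adjusted p = 0.0337 by edgeR). Cr2, the complement receptor gene, measured 17.0, 4.46 and 20.9 CPM in normal colon and 3.26, 1.17 and 2.17 CPM in the tumours, a log2 fold change of -2.70 (with SE 0.92, adjusted p = 0.0228 by edgeR). Neither gene's groups overlapped.

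Cxcl13, the ligand, measured 9.22, 10.9 and 13.5 CPM in wild-type female normal colon and 1.63, 4.33 and 3.04 CPM in the tumours. Its normal libraries lay close together and apart from the tumours, and it fell by 1.87 on the log2 scale (SE 0.49, adjusted p = 0.00440 by edgeR), which is 3.66-fold. Cxcl13 passed in all 15 settings tried. Its receptor gene Cxcr5 measured 2.20, 1.25 and 4.65 CPM in normal colon and 1.22, 1.64 and 1.52 CPM in the tumours, overlapping groups with a log2 fold change of -0.84 (with SE 0.71, adjusted p = 0.341 by edgeR).

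Pax5 was read once in the 3 tumours of wild-type females, as 0, 0.117 and 0 CPM, against 1.23, 0 and 2.17 CPM in normal colon. Pooled over libraries this is 1 against 43 counts, a ratio of 29.0 with an exact 95% interval of 4.93 to 1170 that covers counting error only. With the spread between replicates taken in, Pax5 did not pass (adjusted p = 0.0568 by edgeR). Pou2f2 measured 1.10, 0.976 and 2.79 CPM in normal colon and 2.17, 2.46 and 1.85 CPM in the tumours (log2 fold change 0.48, SE 0.45, adjusted p = 0.397 by edgeR). It was the only member with a positive value in wild-type females.

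In all, 6 of 9 members were called lower in wild-type female tumours, where 24% of all tested genes were, and 6 of 9 lay lower without overlap, where 28.6% did. All of these but Cxcl13 moved together between libraries, so 6 of 9 is not a count of separate results. The members' median log2 fold change was -2.86 and that of all tested genes 0.01. Without normal replicate 3, the library highest for 9 of 9 members, 2 of 9 were called, and without tumour replicate 3 the count was 3 of 9. limma's voom with quality weights called 2 of 9, and DESeq2 called 7. A fit of these groups alone kept only 5 members past its filter and called 3. Tumour replicates 2 and 3 carry running numbers 152 and 153 and replicate 1 the number 105. With a covariate for numbers 152 to 154, 7 of 9 were called. That covariate was fitted over all libraries and draws on the knock-in male tumours that chose the members. Its count and shifts are therefore a description. The covariate also moved the log2 fold changes of Cd79a from -2.86 to -4.96, of Cd79b from -3.27 to -4.97 and of Blk from -3.01 to -4.38, while without normal replicate 3 they were -2.26, -2.39 and -2.21 (adjusted p = 0.0829, 0.0603 and 0.133 by edgeR). Without tumour replicate 2 Cd79a stood at -3.57 (adjusted p = 0.030 by edgeR).

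In wild-type males, 1 of 9 members was called lower in tumours, where 19.3% of all tested genes were. That member was Cxcl13, at 16.2, 7.94 and 4.68 CPM in normal colon and 3.10, 3.20 and 2.49 CPM in the tumours of replicates 1 to 3, a log2 fold change of -1.74 (with SE 0.50, adjusted p = 0.0114 by edgeR), or 3.35-fold. It was also the 1 member of 9 whose groups did not overlap, against 26.4% of all tested genes. Without normal replicate 1 its log2 fold change was -1.16 (adjusted p = 0.0790 by edgeR), and without tumour replicate 3 it was -1.63 (adjusted p = 0.0507 by edgeR).

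The B cell genes of wild-type males overlapped between tissues. Ms4a1 measured 2.02, 2.04 and 3.04 CPM in the tumours, values inside the range of 1.12 to 13.2 CPM in normal colon (log2 fold change -1.53, SE 0.89, adjusted p = 0.191 by edgeR). Cd79b had a log2 fold change of -1.66 (with SE 0.83, adjusted p = 0.132 by edgeR), Pax5 of -1.51 (SE 1.05, adjusted p = 0.276 by edgeR) and Cr2 of -1.49 (SE 0.83, adjusted p = 0.177 by edgeR). The other values were -1.15 for Blk, -0.92 for Cd79a, -0.52 for Cxcr5 and 0.28 for Pou2f2, with no call. These values rest in large part on normal replicate 1, the highest of its group. Without it the log2 fold change was -0.77 for Cd79b, -0.63 for Ms4a1, -0.48 for Cr2, -0.15 for Pax5, -0.10 for Blk and -0.09 for Cd79a, and that of Cxcr5 turned to 0.58. The members' median was -1.49 and that of all tested genes 0.01.

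The tumour effect was set against sex directly. The female minus male difference in log2 fold change was negative for 8 of 9 members, from -0.13 for Cxcl13 to -3.0 for Pax5, and it was 0.20 for Pou2f2. None of the 9 passed the interaction test in edgeR, where 1.12% of all tested genes did, 0 of 9 had an unadjusted p under 0.05, and DESeq2 and voom called 0. The interval of the difference for Ms4a1 ran from -4.90 to 0.91, so the different numbers of calls in the 2 sexes do not show that the tumour effect differed.

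**Figure D3:**
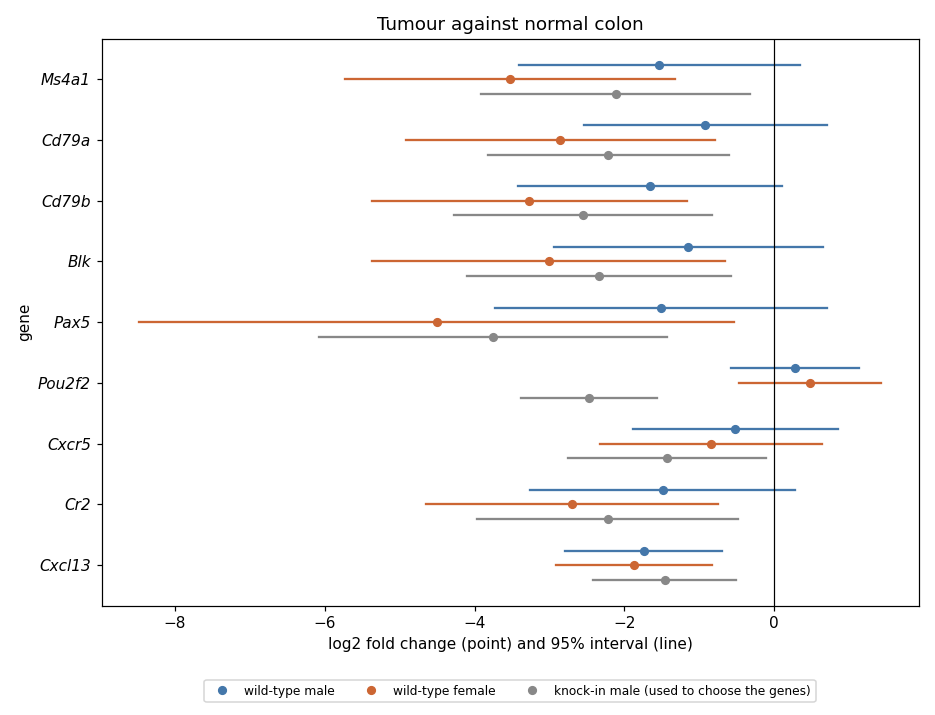
Log2 fold change of tumour against normal colon for the 9 members (points) with 95% intervals (lines) in wild-type males, wild-type females and knock-in males. The female values lie lowest for Ms4a1, Cd79a, Cd79b, Cr2, Blk and Pax5, Pou2f2 lies near 0 in both wild-type sexes, and the knock-in male values are a description.

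Knock-in male tumours are the libraries from which the members were chosen. Pou2f2 measured 1.29, 0.769 and 0.979 CPM in these tumours and 4.30, 7.41 and 5.19 CPM in knock-in male normal colon, groups that lie far apart, for a log2 fold change of -2.47 (with SE 0.43). Pax5 measured 0.136, 0 and 1.47 CPM in the tumours against 5.05, 10.6 and 3.29 CPM in normal colon (log2 fold change -3.75, SE 1.10). All 9 members had negative values, from -1.43 for Cxcr5 to -3.75, and 6 of 9 lay lower without overlap, against 17.5% of all tested genes; since this contrast chose the members, the count supports nothing.

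Tumour replicate 3 of the knock-in males, with running number 154, stood apart from replicates 1 and 2 in the B cell genes. Ms4a1 measured 0.953, 1.06 and 7.24 CPM in replicates 1 to 3, Cd79a 1.84, 0.947 and 8.03 CPM and Cd79b 0.681, 1.12 and 5.38 CPM. Replicate 3 reached the level of the lower normal libraries for Ms4a1 and Cd79a. Without it the log2 fold change of Ms4a1 moved from -2.12 to -3.66, that of Cd79a from -2.21 to -3.54 and that of Pax5 from -3.75 to -6.42. Pou2f2 was level across the 3 tumours, with values of -2.75 to -2.26 over the settings tried.

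Against wild-type male tumours, the members with log2 fold changes furthest from 0 in knock-in male tumours were Pou2f2 and Cxcl13, as a description. Pou2f2 measured 3.96, 4.07 and 3.96 CPM in wild-type tumours, all above the highest knock-in value of 1.29 CPM, a log2 fold change of -1.97 (with SE 0.44) for knock-in against wild-type. It was the 1 member of 9 lower without overlap, against 16.1% of all tested genes. Cxcl13 measured 2.65, 9.17 and 8.42 CPM in knock-in tumours and 3.10, 3.20 and 2.49 CPM in wild-type tumours (log2 fold change 1.22, SE 0.50), with replicate 1 inside the wild-type range. The other 7 members lay between -0.97 and 0.30 and overlapped, through knock-in replicate 3, the highest of the 6 male tumours for all 7. Knock-in replicates 1 and 2 lay below every wild-type male tumour for these 7 members. Without replicate 3 the log2 fold change was -3.65 for Pax5, -1.52 for Blk, -1.38 for Cd79a, -1.29 for Cd79b, -1.24 for Ms4a1, -0.89 for Cr2 and -0.52 for Cxcr5. The difference of the tumour effects between genotypes was -2.75 (SE 0.59) for Pou2f2, the value on which it was chosen.

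In normal colon the knock-in libraries held more RNA of every member on average, in both sexes, but no member passed the test. In females, Cd79a measured 13.7, 23.9 and 11.4 CPM in knock-in and 4.18, 1.11 and 7.90 CPM in wild-type colon, without overlap, for a log2 fold change of 1.90 (with SE 0.76, adjusted p = 0.0977 by edgeR). Pax5 had no overlap either, with a log2 fold change of 2.31 (with SE 1.01, adjusted p = 0.130 by edgeR). Pou2f2 measured 4.23, 5.06 and 1.99 CPM against 1.10, 0.976 and 2.79 CPM, and the lowest knock-in library lay inside the wild-type range (log2 fold change 1.27, SE 0.43, adjusted p = 0.0530 by edgeR).

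The other female values were 1.65 for Blk (interval -0.08 to 3.37), 1.48 for Cxcr5, 1.14 for Cd79b, 0.86 for Cr2, 0.71 for Ms4a1 and 0.19 for Cxcl13 on the log2 scale. Of the 9 members 0 were called higher by edgeR, where 8.97% of all tested genes were, and 2 of 9 lay higher without overlap, where 19.6% did. Before adjustment 4 of 9 had p under 0.05. DESeq2 called 1 member (Pou2f2) and voom 2 (Pou2f2 and Cd79a). Pou2f2 passed without wild-type replicate 3 (log2 fold change 1.82, adjusted p = 0.0113 by edgeR) and without knock-in replicate b (1.58, adjusted p = 0.0256 by edgeR), the highest and the lowest library of their groups for all 9 members. The call on Pou2f2 thus turns on which libraries and which tool are used.

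In males the log2 fold changes of knock-in against wild-type normal colon ran from 0.69 for Cr2 to 1.27 for Pax5, with a median of 0.93. Of the 9 members 0 were called, where 0.0126% of all tested genes were in either direction, 1 of 9 (Cxcl13, log2 fold change 0.94, SE 0.44) had an unadjusted p under 0.05, and DESeq2 and voom called 0. Without knock-in replicate 2 the values of Ms4a1, Cr2 and Cxcr5 turned to -0.081, -0.20 and -0.016. Pou2f2 had a log2 fold change of 0.78 (with SE 0.40), and it entered the contrast that chose it with these same libraries. The knock-in libraries were also the normal side of the contrast that chose Pax5. Male values of Pax5 and of members that move with it are therefore not independent of that choice.

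No difference in the genotype effect between the sexes was detected by the interaction test: 0 of 9 were called by edgeR, DESeq2 or voom, where edgeR called 2.54% of all tested genes, and 0 of 9 had an unadjusted p under 0.05. The female minus male differences ran from -0.75 for Cxcl13 to 1.04 for Pax5, and the interval for Pax5 was -1.79 to 3.87. Each of these genotype comparisons shares its wild-type normal libraries with the tumour comparison of the same sex.

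**Figure D4:**
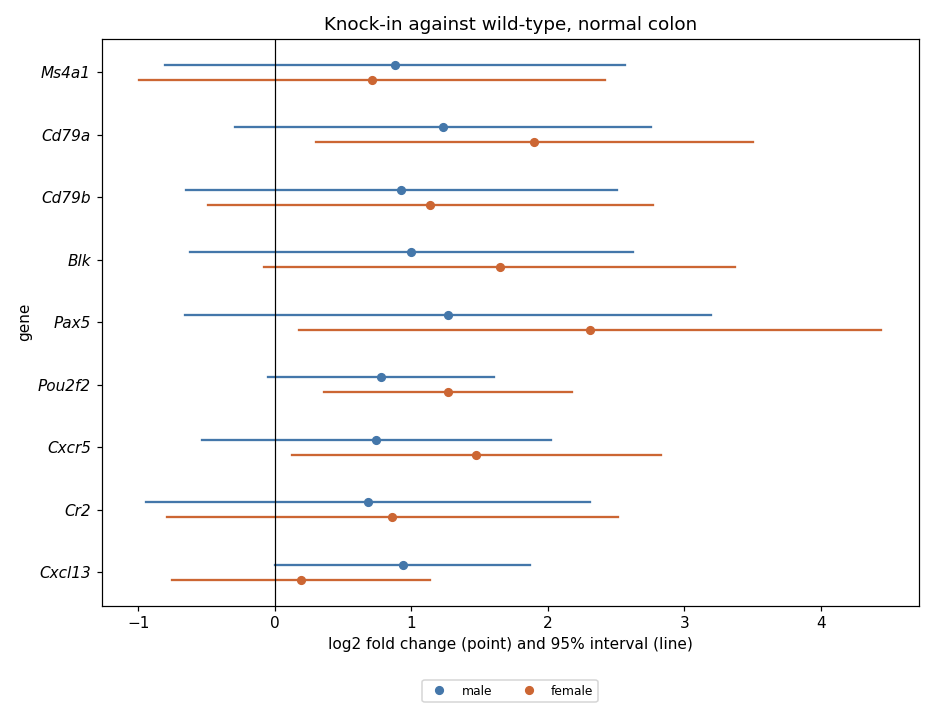
Log2 fold change of knock-in against wild-type normal colon for the 9 members (points) with 95% intervals (lines), in males and females. All points lie to the right of 0, and most intervals cross it.

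Between the sexes, the wild-type tumours gave the clearest ordering. Cd79a measured 0.136, 1.05 and 0.544 CPM in female and 3.31, 2.62 and 4.60 CPM in male tumours (female against male log2 fold change -2.59, SE 0.99, adjusted p = 0.154 by edgeR). Pou2f2 measured 2.17, 2.46 and 1.85 CPM in female and 3.96, 4.07 and 3.96 CPM in male tumours, both narrow groups (log2 fold change -0.88, SE 0.43). For 8 of 9 members every female tumour lay below every male tumour, where 15.3% of all tested genes did. Most of these members moved together between libraries, so 8 of 9 is not a count of separate results. Cxcl13 was the exception, with overlapping values and a log2 fold change of 0.06.

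No member passed between the wild-type tumours of the sexes in edgeR, where 0.86% of all tested genes did in either direction, while 3 of 9 had an unadjusted p under 0.05 and DESeq2 and voom called 0. A fit of these tumours alone called 4 of 9 (Ms4a1, Cd79a, Cd79b and Blk), and a covariate for running numbers 152 to 154 called 1 (Cd79a). The covariate draws on the knock-in male tumours that chose the members, so its call is a description. Pax5 was read as 1 count in female against 28 counts in male tumours, a ratio of 24.9 with an exact 95% counting interval of 4.12 to 1020. Running numbers 152 and 153 occur in the female tumours only, and replicate 1, with the number 105, also lay below the male tumours in these 8 members.

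In normal colon of wild-type mice 0 of 9 members were called between the sexes by edgeR, where 15.9% of all tested genes were in either direction. DESeq2 called 0 and voom called 1. The 1 of 9 with an unadjusted p under 0.05 was Pou2f2, whose choice used these male libraries, so that count supports nothing. Pou2f2 had a female against male log2 fold change of -1.09 (with SE 0.43), and the others lay between -1.22 and 0.19. In normal colon of knock-in mice 0 of 9 were called by edgeR, DESeq2 or voom, where edgeR called 0.584% of all tested genes, and 0 of 9 had an unadjusted p under 0.05. There Ms4a1, Cd79a, Cd79b, Cr2, Blk and Cxcr5 differed by 0.11 or less on the log2 scale, and the interval for Cxcr5 was -1.15 to 1.38.

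Other genes of B cells were read with a list of 25 surface, signalling and transcription genes, of which 23 were tested. In wild-type female tumours 7 of 23 fell and 3 rose, where 24% and 25% of all tested genes did, with a median log2 fold change of -1.45. Among these, Spib, a transcription factor of B cells and of M cells, fell by 3.97 on the log2 scale (SE 0.80, adjusted p = 0.000581 by edgeR) and Fcrla fell by 3.44 (SE 0.99, adjusted p = 0.00783 by edgeR). The 3 that rose were Spi1, Bcl11a and Cd40, with values of 2.08, 1.63 and 1.62. Spi1 encodes PU.1, which myeloid cells also use, and Cd40 is carried by antigen-presenting cells of other kinds.

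In wild-type male tumours 1 of these 23 genes fell (Ebf1, an early B cell factor, log2 fold change -1.29) and 1 rose (Spi1, 1.07), where 19.3% and 16.5% of all tested genes did. In knock-in against wild-type female normal colon 4 of 23 rose, where 8.97% of all tested genes did, and 0 fell. Among them were Tnfrsf13c, the receptor for the survival factor BAFF, with a log2 fold change of 2.51 (with SE 0.71, adjusted p = 0.0225 by edgeR), Spi1 with 1.54 (SE 0.36, adjusted p = 0.00818 by edgeR) and Ebf1 with 1.47 (SE 0.37, adjusted p = 0.0134 by edgeR). Which cells of the bulk tissue carried these genes was not tested. Summed fibroblast and smooth muscle markers were also higher in this comparison, as given below. In male normal colon 0 of 23 were called, with a median of 1.00.

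Plasma cell genes mark the antibody-secreting stage after the B cell. Of 10 tested, 5 fell and 1 rose in wild-type female tumours, where 24% and 25% of all tested genes did, and 2 fell and 2 rose in wild-type male tumours, where 19.3% and 16.5% did, shares near the male counts. Igj, the joining chain of secreted antibodies, fell by 2.32 in the female tumours (SE 0.73, adjusted p = 0.0156 by edgeR), and Sdc1, which colon epithelium also expresses, was the 1 that rose. In knock-in against wild-type female normal colon, where all 9 members had positive values, Igj fell by 2.29 (SE 0.73, adjusted p = 0.0439 by edgeR) and Xbp1, a factor of secretory cells, by 0.78 (SE 0.18, adjusted p = 0.00739 by edgeR), 2 of 10 against 7% of all tested genes called lower. Within groups, the plasma cell markers and the members' mean had r = -0.02 over the 21 libraries (rho = 0.17), and r = 0.45 without the 2 farthest libraries.

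Genes of the germinal centre, the part of a follicle where B cells refine their antibodies, were followed with a list of 8 tested genes. Of these, 3 fell and 2 rose in wild-type female tumours, against 24% and 25% of all tested genes, and 2 fell and 2 rose in wild-type male tumours, against 19.3% and 16.5%. Rgs13, a regulator of chemokine signalling in germinal centre B cells, fell by 2.81 in female tumours (SE 0.55, adjusted p = 0.000393 by edgeR), from 1.24 to 2.54 CPM in normal colon to 0.136 to 0.351 CPM. S1pr2 and Bcl6, both also expressed outside B cells, rose there by 1.61 and 0.64. In knock-in against wild-type female normal colon Rgs13 fell by 2.32 (SE 0.50, adjusted p = 0.00509 by edgeR), against the sign of all 9 members. Which cells of the bulk tissue carried Rgs13 was not tested, so neither value is a reading of germinal centres alone.

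Of 16 tested genes of lymphoid stroma and homing other than Cxcl13, 1 fell and 2 rose in wild-type female tumours, against 24% and 25% of all tested genes, and 2 fell and 1 rose in wild-type male tumours, against 19.3% and 16.5%. Tnfrsf11a, the receptor RANK, fell in both, by 1.78 in females (SE 0.19, adjusted p = 9.64e-07 by edgeR) and by 1.59 in males (SE 0.19, adjusted p = 1.19e-05 by edgeR). Mfge8, made by follicular dendritic cells and by other stroma, rose in female tumours with a log2 fold change of 1.61 and in knock-in female normal colon with 2.62 (SE 0.29, adjusted p = 4.31e-05 by edgeR), while Tnf in the latter fell by 2.11. Of 7 genes of the epithelium over follicles, 2 rose in each wild-type tumour comparison (Marcksl1 and Tnfaip2) and Spib fell in females.

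Markers of other cells moved with the members in places, and their part in the results was not tested. Within groups over the 21 libraries, the mean log2 CPM deviations of the members and of the T cell markers had r = 0.67. With the members' mean, r was 0.73 for leukocyte markers (Ptprc and Coro1a), 0.79 for enteric neuron and glia markers, 0.38 for smooth muscle markers and -0.29 for epithelium markers. T cell markers overlapped between the wild-type female tumours and normal colon, with sums of 12.2 to 15.3 CPM against 7.57 to 20.7 CPM and 0 of 8 called by edgeR. Colon epithelium markers fell for 6 of 6 genes in both wild-type tumour comparisons, with sums of 4113 to 4962 CPM in female tumours against 7365 to 7972 CPM in normal colon and of 4622 to 4846 CPM in male tumours against 5684 to 7619 CPM. Fibroblast markers rose for 3 of 4 genes in female tumours, where 25% of all tested genes were called higher. Of all tested genes, 24% were called lower in the female and 19.3% in the male comparison. Smooth muscle markers fell for 4 of 4 genes in both wild-type tumour comparisons, and their sum was 128 to 150 CPM in female tumours against 1346 to 3049 CPM in normal colon. Enteric neuron and glia markers summed to 4.89 to 6.78 CPM in female tumours and 9.48 to 12.4 CPM in normal colon.

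In normal colon of females the smooth muscle sum was 5058 to 7217 CPM in knock-in and 1346 to 3049 CPM in wild-type libraries, and 2 of 4 markers rose. The fibroblast sum was 1205 to 1552 CPM against 558 to 711 CPM, also with 2 of 4 called higher, and 2 of 6 epithelium markers fell. Of all tested genes, 8.97% were called higher and 7% lower in this comparison. The T cell sum was 10.8 to 27.2 CPM against 7.57 to 20.7 CPM, with 0 of 8 called. In knock-in male tumours the T cell sum was 7.28 to 19.5 CPM against 18.9 to 32.5 CPM in normal colon, the leukocyte sum 37.5 to 80.9 CPM against 93.8 to 196 CPM, and the smooth muscle sum 645 to 731 CPM against 3294 to 6057 CPM. The T cell groups overlapped slightly and the other pairs did not, and edgeR called 0 of 8 T cell, 0 of 2 leukocyte and 4 of 4 smooth muscle markers lower. The share of all tested genes called in knock-in male tumours is not given, so these counts are a description.

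Among the genes whose log2 CPM across the 21 libraries was most like the members' mean were H2-Eb2 (r = 0.963), Fcrla (0.963), Ikzf3 (0.963), Cd22 (0.962) and H2-Ob (0.961). Cr2 was most like Bank1 (r = 0.972), Cd79b and Cd79a most like H2-Ob (0.971 and 0.970), Blk most like Fcrla (0.973), and Cxcr5 most like Fcer2a (0.931). Pou2f2 had other neighbours, Nrros (0.863), Coro1a (0.862) and Dennd4b (0.862), and so had Cxcl13, namely Sfrp4 (0.882), Clec2i (0.880) and Itm2a (0.876). These are descriptions over libraries that share groups and depth.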

How the data were processed

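Total RNA from 21 colon libraries was sequenced after removal of ribosomal RNA, with random priming, per the labels' protocols. The authors deposited raw counts per gene symbol, made with Trimmomatic, HISAT2 and featureCounts on mm10, per the submitters' processing notes; strand setting and gene annotation are not given in the sources used here. The authors' own DESeq2 table was not used. Counts were tested with edgeR 4.0.16 (R 4.3.3): TMM scaling, the group-wise low-count filter, a robust quasi-likelihood fit of all 7 groups together and two-sided tests with Benjamini-Hochberg adjustment over the 15936 genes tested, at a threshold of 0.05. Log2 CPM used a prior count of 2. The members and the other gene lists were chosen with earlier results of these data known. The 9 members were always named; from each other list up to 3 genes that rose and 3 that fell were named, those with the largest changes among genes with a mean of at least 20 counts. One gene that this rule names is not reported here. Alternatives were DESeq2 1.42.0, limma 3.58.1 voom with quality weights, other scalings and filters, a replicate block, a covariate for library numbers 152 to 154, fits of the compared groups alone and leaving out each replicate. The covariate was fitted over all libraries, the knock-in male tumours among them. Tests were tried on simulated data first. Exon lengths and positions came from GENCODE M21, promoters from RefSeq.

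Among comparisons without knock-in females, only in wild-type male tumour against normal colon did 6 of 6 libraries correlate best with their own replicate number. There every same-numbered pair had r of 0.169 to 0.215 in its deviations from the group means. Elsewhere r for number 1 was -0.300 in knock-in male tumour against normal colon and 0.461 in knock-in against wild-type male normal colon. The latter libraries differ in genotype and cannot be 1 animal, so r of this size does not show pairing. No replicates of a group agreed within counting noise (chi-square per degree of freedom 6.60 to 63.4). Counts carry no molecular identifiers, so counting intervals and floors cover counting error only.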

Additional observations from a re-analysis of the deposited data

How the results depend on the processing

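Each comparison was refitted under up to 21 settings. In wild-type females the count of members called in tumour against normal colon was 6, 2 with voom, 3 in a fit of the compared groups alone (where 5 members were left) and 2 to 7 with 1 replicate left out. Ms4a1 and Cxcl13 passed in 15 of 15 settings there, with edgeR, DESeq2 or voom adjusted p of 0.000447 to 0.0452 and 0.000315 to 0.0257. In wild-type males the count of 1 was 0 to 1 with a replicate left out. For knock-in against wild-type female normal colon the count of 0 became 1 with DESeq2, 2 with voom, 1 with the covariate for numbers 152 to 154 and 0 to 1 with a replicate left out. Between the sexes, the count of 0 became 1 with voom and 0 to 1 with a replicate left out in wild-type normal colon, and 4 in a fit of the compared groups alone and 1 with the covariate in wild-type tumours. The other counts were 0 throughout.

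No value that passed changed its sign. With a replicate left out, log2 fold changes that turned were Cxcr5 in wild-type male tumours (-1.0 to 0.58), Ms4a1 (-0.081 to 1.80), Cr2 (-0.20 to 1.70) and Cxcr5 (-0.016 to 1.85) in male normal colon by genotype, Cxcl13 in female normal colon by genotype (-0.10 to 0.36) and Cxcl13 between wild-type tumours of the sexes (-0.29 to 0.35), the last also with the covariate (-0.51). In knock-in against wild-type male tumours, a description, Ms4a1 (-1.24 to 0.71), Cd79a (-1.38 to 0.39), Cd79b (-1.29 to 0.45), Blk (-1.52 to 0.34) and Cr2 (-0.89 to 0.41) turned too, as did Ms4a1 (-2.12 to 0.35), Cr2 (-1.78 to 0.13) and Cxcl13 (-0.36 to 0.64) in the difference of tumour effects between male genotypes. Ms4a1 and Cd79b in the tumour description also turned with the covariate (-1.07 and -1.12) and, closer to 0, with voom, and Cd79b with the replicate block. The cause was not tested.

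The replicate block moved the count in wild-type female tumours from 6 to 5 (Blk, edgeR adjusted p = 0.0597) and turned Cxcl13 between wild-type tumours to -0.015, where libraries share only a number; mean r between same-numbered libraries was -0.12 to 0.06 outside wild-type male tumour against normal colon. It changed no call there. No block could be fitted with knock-in females, whose columns carry 1 clear number. Library totals without TMM moved the median of all genes from 0.01 to 0.15 in wild-type female tumours and from 0.02 to 0.10 in female normal colon by genotype. In the difference of tumour effects between the sexes it moved from 0.03 to 0.13. This scaling changed no member's call. A mean of at least 50 counts removed Pax5, Pou2f2 and Blk, which gave no value there. Depth limits Pax5 and Blk most, with 0 to 3 counts a library in wild-type female tumours.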
